A study of Mus musculus with 28 samples.

Results

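Ldb1 binding was compared between mature olfactory sensory neurons that had lost the transcription factor Lhx2 and control neurons of the mouse. The comparison rests on 5 chromatin immunoprecipitation (ChIP) libraries of the 28 samples of the series, each with its own list of Ldb1 peaks on chromosomes 1 to 19, X and Y: 2 libraries of Lhx2 KO neurons and 3 of control neurons. The 2 CTCF and 2 Rad21 lists of control neurons served to describe the sites. The control genotype was OMP-IRES-GFP, which marks mature neurons through the Omp gene. The Lhx2 KO mice carried OMP-IRES-Cre with Lhx2fl/fl and the reporter Rosa-CAG-tdtom+/fl, so Cre acted from Omp, a gene switched on late, and Lhx2 was removed after a neuron had matured. Besides Lhx2, the groups differed in reporter, in Cre and in the insert at Omp. These differences cannot be told apart from the deletion here. The same anti-Ldb1 antibody was used on fixed, sorted cells of the olfactory epithelium in both groups. The labels used here give no age, sex or pooling of animals for these libraries, nor whether each library had its own animal. The p-values therefore measure the spread between libraries, which may be technical. Peak lists do not measure Lhx2, so its loss was not checked here.

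Ldb1 binds no DNA itself. It dimerises and bridges distant sites, and reaches chromatin through partners with a LIM domain, among them the homeodomain factor Lhx2, which recognises TAATTA-type sequences. In olfactory neurons Lhx2 and Ebf factors sit at enhancers within the odorant receptor (OR) gene clusters, and Ldb1 helps bring those enhancers together. CTCF marks boundaries of chromatin domains, and Rad21 is a subunit of cohesin, the ring complex that forms loops between them.

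Promoter sequences are shown for control Ldb1 regions that overlap a promoter by at least 1 base. They are the 3 strongest control regions kept in both KO lists and the 3 strongest with a peak in neither KO list, among regions that overlap a RefSeq promoter window (250 bases before to 50 after a listed start, GRCm38.p6, of which mm10 is the browser name). Capitals mark, on either strand, the homeodomain core TAATTA, the Ebf core CCCNNGGG and each other motif counted further on except the E-box and the CTCF core. The kept ones belong to Lingo2 (leucine-rich repeat protein of neurons; chr4:35845155-35845454, minus strand), Cntn4 (contactin, an axonal adhesion protein; chr6:106118515-106118814, plus strand) and Sult1d1 (a sulfotransferase; chr5:87568957-87569256, minus strand).
Lingo2: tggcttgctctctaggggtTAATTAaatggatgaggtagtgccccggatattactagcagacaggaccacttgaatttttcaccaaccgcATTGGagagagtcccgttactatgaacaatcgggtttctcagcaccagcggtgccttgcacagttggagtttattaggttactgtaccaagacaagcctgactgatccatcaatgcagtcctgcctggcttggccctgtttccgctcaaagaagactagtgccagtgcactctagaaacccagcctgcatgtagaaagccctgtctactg
Cntn4: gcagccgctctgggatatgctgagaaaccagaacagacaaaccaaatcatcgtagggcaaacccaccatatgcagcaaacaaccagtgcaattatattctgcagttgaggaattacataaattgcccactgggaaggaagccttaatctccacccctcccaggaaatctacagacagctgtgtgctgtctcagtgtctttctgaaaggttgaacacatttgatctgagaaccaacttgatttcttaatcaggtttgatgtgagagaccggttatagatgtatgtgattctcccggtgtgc
Sult1d1: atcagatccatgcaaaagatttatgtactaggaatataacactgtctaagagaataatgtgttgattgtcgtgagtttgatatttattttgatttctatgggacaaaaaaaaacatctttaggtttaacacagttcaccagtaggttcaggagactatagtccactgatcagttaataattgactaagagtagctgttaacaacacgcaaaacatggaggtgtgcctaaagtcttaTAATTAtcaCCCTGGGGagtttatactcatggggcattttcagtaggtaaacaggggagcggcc
The missing ones belong to Pth2 (a peptide hormone; chr7:45180745-45181044, plus strand), Clip4 (a CAP-Gly domain protein; chr17:71769441-71769740, plus strand) and Cnga4 (a subunit of the olfactory cyclic nucleotide-gated channel; chr7:105404318-105404617, plus strand, at a start listed inside the gene body).
Pth2: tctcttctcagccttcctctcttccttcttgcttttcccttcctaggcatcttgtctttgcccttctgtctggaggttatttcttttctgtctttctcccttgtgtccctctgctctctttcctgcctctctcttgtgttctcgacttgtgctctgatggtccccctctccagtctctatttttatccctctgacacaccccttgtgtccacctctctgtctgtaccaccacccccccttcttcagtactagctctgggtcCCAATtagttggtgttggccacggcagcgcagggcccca
Clip4: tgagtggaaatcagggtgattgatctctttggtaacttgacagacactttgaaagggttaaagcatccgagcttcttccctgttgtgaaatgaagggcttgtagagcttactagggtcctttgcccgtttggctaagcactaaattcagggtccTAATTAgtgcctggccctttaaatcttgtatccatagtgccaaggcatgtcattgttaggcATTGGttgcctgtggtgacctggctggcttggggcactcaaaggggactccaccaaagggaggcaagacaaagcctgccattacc
Cnga4: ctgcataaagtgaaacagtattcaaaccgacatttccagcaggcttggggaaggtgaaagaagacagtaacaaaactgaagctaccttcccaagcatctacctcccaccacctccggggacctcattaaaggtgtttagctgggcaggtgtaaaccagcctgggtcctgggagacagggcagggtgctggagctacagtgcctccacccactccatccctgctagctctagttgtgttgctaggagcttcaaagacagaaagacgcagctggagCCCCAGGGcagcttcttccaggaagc
Among the kept windows TAATTA occurs once in Lingo2 and once in Sult1d1, and among the missing ones once in Clip4. The Ebf core occurs once in Sult1d1 and once in Cnga4. Kept and missing promoters among these 6 thus both hold each motif. Part of a window can lie outside its region, as in Cntn4, whose region starts at 106118705.

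Strong control sites were largely absent from the KO lists at matched list length. The control lists held 24877, 28879 and 16067 peaks and the KO lists 4290 and 542, so equal numbers of top peaks were compared: the 542 of the second KO list and the 4290 of the first. Peaks were ranked by the deposited score within their own list. The reference was the set of regions shared by 2 control libraries, and each control library was set against regions of the other 2. Of the 542 strongest reference regions, the top 542 peaks of the KO libraries recovered 19.0% and 36.9%, and those of the control libraries 90.2%, 88.9% and 87.3%. No KO value lay near the control values. The difference was -60.85 percentage points (exact permutation p = 0.1, two-sided, the smallest that 2 against 3 libraries allow; Benjamini-Hochberg adjusted p = 0.217 over 13 tests). Of the 4290 strongest, the first KO list recovered 27.6% and the control lists 92.0%, 92.2% and 90.4% (exact permutation p = 0.25, the smallest for 1 against 3; adjusted p = 0.295).

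**Figure D1:**
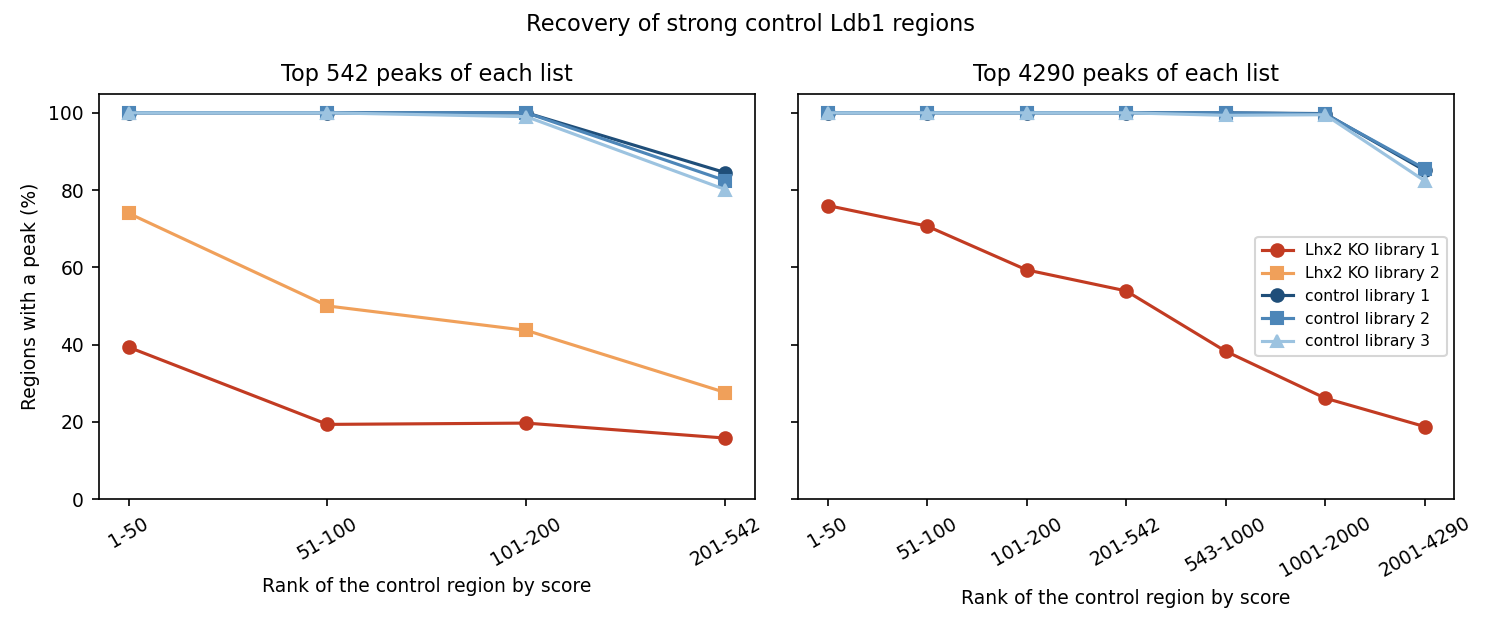
Share of control Ldb1 regions (%, vertical axis) found among the top 542 (left) or top 4290 (right) peaks of each library, by rank of the region (horizontal axis); each line is 1 library. Control libraries stay at or near 100% except in the last rank class, while the KO libraries start at 39.3% and 74.0% (left) and at 76.0% (right) and are lower at later ranks.

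The shortfall reached the very strongest sites. For ranks 1 to 50 every control library recovered 100%, against 39.3% and 74.0% in the KO libraries at 542 peaks. The 2 KO libraries also differed from each other: they shared 159 of their top 542 peaks (29.3%), whereas pairs of control libraries shared 468 to 487. The first KO library shared 99 to 101 of its top peaks with a control library and the second 196 to 202. By this count the second KO library shared more with each control library than with the first KO library. Of its 542 peaks, 393 (72.5%) overlapped some peak of the longer first list.

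Peaks found in at least 2 control libraries formed 22789 control regions, ranked by their mean control score. A region is called kept where a KO peak overlaps it by at least 1 base. Of all regions 12.7% were kept in the first KO list and 2.17% in the second. These shares are the background against which the counts below are read. These include the 383 regions kept in both (1.68%), and 86.84% were kept in neither. Regions kept in both were among the strong control regions, with a median rank of 665, and the 111 kept in the second list alone had a median rank of 1740. The 2505 kept in the first list alone had a median rank of 7153, against 12142.5 for regions in neither, and 1696 of the 2888 regions kept in the first list ranked below 4290. Strong regions were missing as well. Of the 542 strongest control regions 203 (37.5%) had a peak in neither KO list, and of the 50 strongest 10 had none.

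The strongest regions without any KO peak included one 11.7 kb from Efr3b, ranked 33, 23 and 31 in the 3 control lists, and one 21.1 kb from Nek6, ranked 38, 35 and 46. Others lay 2.99 kb from Sema6a, a semaphorin of axon guidance (54, 56 and 36), within Cadps2, which primes secretory vesicles (22, 33 and 79), and within Mvb12b, Helz and Herc3. Another lay 1.29 kb from Cdc42ep4, a partner of the Cdc42 GTPase (90, 131 and 55). Regions of nearly the same control rank were kept in both lists, such as those near Caprin1 (31, 59 and 23 in the controls, 660 and 253 in the KO lists) and within Homer2, a synaptic scaffold (42, 72 and 24, then 66 and 4). On chromosome 17 the contrast fell within a few kilobases. A region from 29020083 to 29020420, 12.1 kb from Stk38, ranked 72, 48 and 66 in the controls and had no KO peak. The region from 29022490 to 29022837, 9.82 kb from Srsf3, ranked lower in the controls (406, 443 and 377) and stood at 13 and 55 in the KO lists. Of the 15 strongest regions without a KO peak, 1 is not reported here.

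The order of sites within the KO lists differed from the control order. Across regions kept in the first list the Spearman correlation of control and KO score was 0.271 (n = 2888 regions), and across those kept in the second 0.390 (n = 494). Between the 2 KO lists it was 0.194, across the 383 regions kept in both, so the KO lists did not share an order either. Between the first 2 control libraries it was 0.944 (n = 22004). That value covers all regions these libraries shared, whereas the KO values cover kept regions only. These correlations are descriptions over regions within these libraries. Scores of the KO lists are whole numbers with many ties, for example 125 peaks at the score that bounds the top 542 of the first list. The first KO library's top 542 peaks overlapped 104 of the 542 strongest control regions, 179 regions ranked 543 to 4290 and 206 of lower rank. In the second library the counts were 201, 186 and 107. The top 542 peaks of the first KO list therefore covered more weak control regions than those of the second did.

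The top peak of both KO lists was the same site. It lies on chromosome 2 from 90414264 to 90414617, in an OR cluster 12.6 kb from Olfr1274, and ranked 340, 481 and 90 in the control lists. A site 76.9 kb from Galnt18 ranked 2206, 1813 and 3479 in the controls and 67 and 2 in the KO lists. Other regions with high scores in both KO lists lay within Zfp64 (37 and 5; control 3, 1 and 2), 21.3 kb from Cacna1a, a neuronal calcium channel (6 and 29; control 57, 60 and 61), 23.1 kb from the kinase gene Camk2d (47 and 17; control 360, 505 and 490), and at Ell3, a transcription elongation factor (162 and 24; control 554, 503 and 421). Among sites weak in the controls, one within S100a3 stood at 7 and 138 in the KO lists against 6226, 6710 and 5554 in the controls. Of 6 regions within 10 kb of Pde4a, a cAMP phosphodiesterase, those outside the gene were not kept. The 4 inside it were kept in the first list, at ranks 63, 199, 207 and 380. Their best control rank in any library was 5872, and none was in the second KO list. S100a3 was picked after its values were seen.

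KO peaks lay at gene ends several times more often than control peaks of equal number. A gene end here is either boundary of a protein-coding gene body, so it can be the start of the gene. Within 1 kb of an end of a protein-coding gene lay 11.6% and 17.5% of the top 542 KO peaks, against 2.95%, 3.14% and 2.58% of the control peaks. The groups did not overlap, with means of 14.6% ± 4.17 (SD, n = 2) and 2.89% ± 0.28 (SD, n = 3), a 5.04-fold ratio (exact permutation p = 0.1, two-sided; adjusted p = 0.217). Among the top 4290 the first KO library had 27.7% (95% Wilson interval 26.4 to 29.1, counting error only) and the controls 4.64%, 4.71% and 4.48%, a 6.02-fold ratio (exact permutation p = 0.25; adjusted p = 0.295). Listed gene starts gave similar values: 9.41% and 15.7% of the top 542 KO peaks lay within 1 kb of a listed gene start, against 1.66%, 2.03% and 1.48%. The median distance to a gene end was 15.8 and 16.9 kb in the KO libraries and 27.1 to 27.5 kb in the controls. The share within a gene body differed little, at 54.8% and 56.5% against 53.5% to 54.4%.

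**Figure D2:**
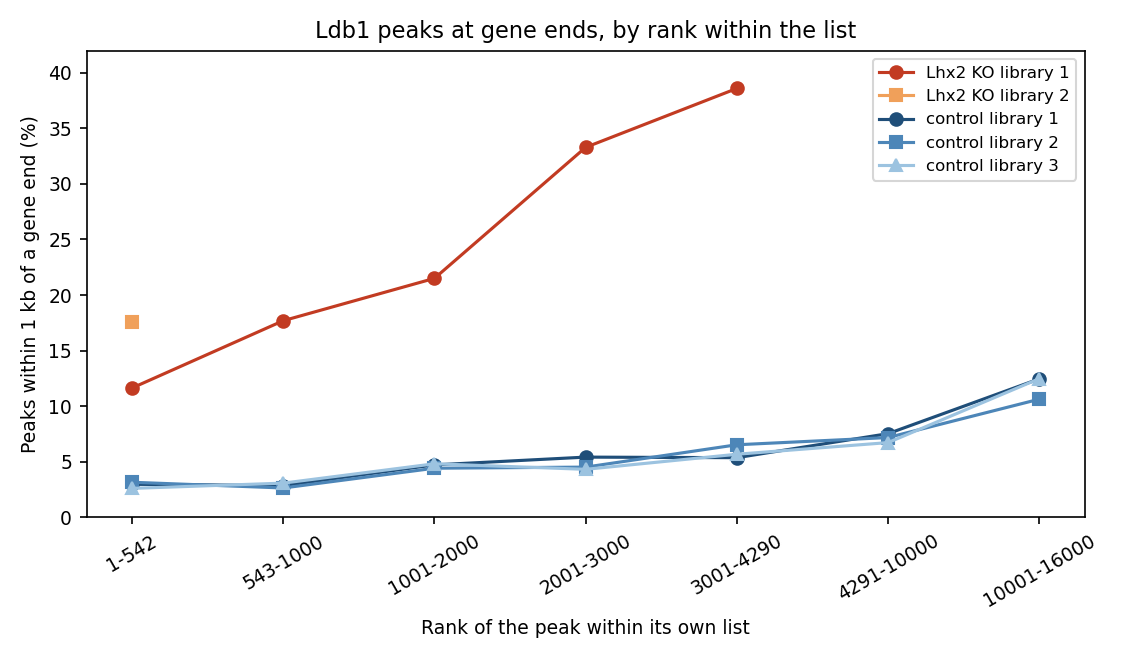
Share of Ldb1 peaks within 1 kb of a gene end (%, vertical axis) by rank of the peak within its own list (horizontal axis), 1 line or point per library. The first KO list climbs from 11.6% to 38.6%, and each control list stays below 13% through rank 16000.

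Gene ends were more common among weaker peaks in the first KO list and in all 3 control lists, and at each rank window the control share was lower. In the first KO list the share was 11.6% in ranks 1 to 542, 21.5% in ranks 1001 to 2000 and 38.6% in ranks 3001 to 4290. In the control libraries ranks 10001 to 16000 held 12.4%, 10.6% and 12.5%. Over the full lists the control shares were 12.99%, 12.65% and 8.28%. Both full KO lists were above these, while the top 542 peaks of the first KO library, at 11.6%, were not above the first and second control lists at full length.

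**Figure D3:**
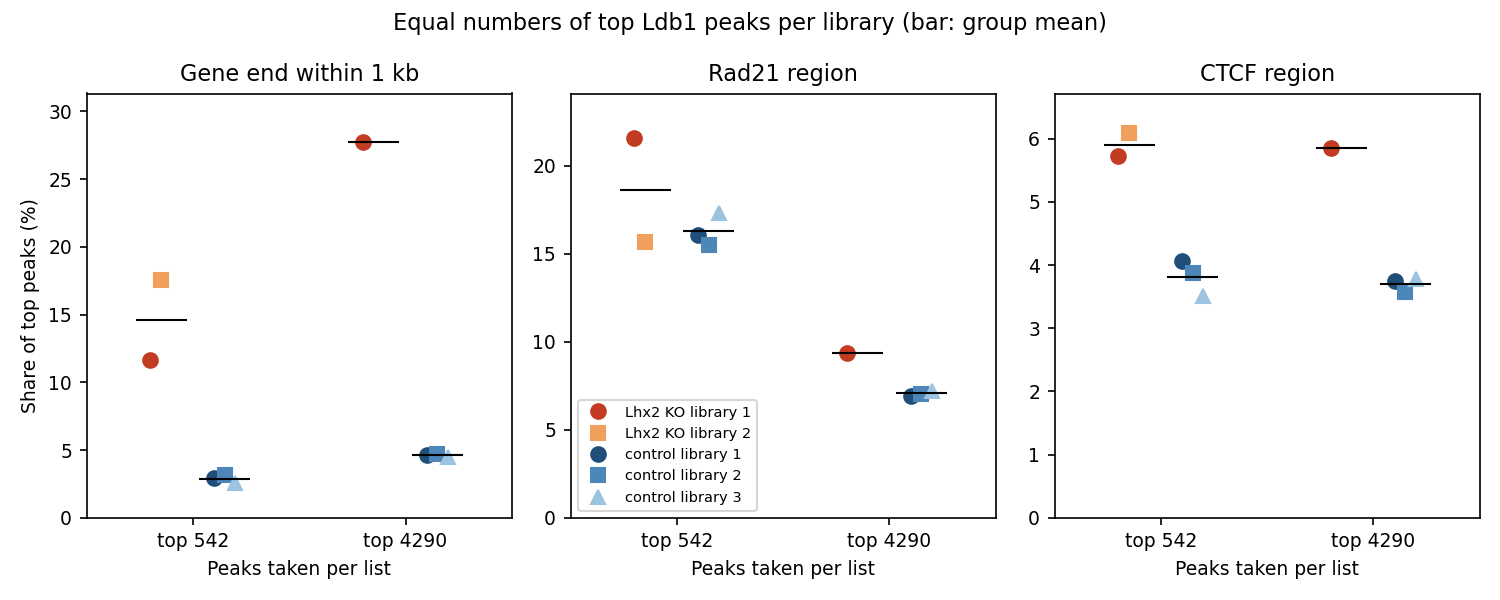
Share of the top 542 and top 4290 peaks (%, vertical axes) within 1 kb of a gene end, at a Rad21 region and at a CTCF region; points are libraries and bars group means. Gene end and CTCF shares of the KO libraries lie above all control libraries, while at 542 peaks the Rad21 shares of the groups overlap (21.6% and 15.7% against 15.5% to 17.3%).

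The same held among control regions of equal strength. For each library, reference regions with and without a top-542 peak were compared within 10 bins of control rank. Kept minus missing, the share at a gene end was 5.15 and 6.53 percentage points in the KO libraries and -0.86, -0.79 and -1.21 in the controls. The groups did not overlap (exact permutation p = 0.1, two-sided; adjusted p = 0.217). In the controls kept regions are nearly all within the first bin, so the matching there is coarse. Over the whole KO lists, 18.5% of regions kept in the first list and 12.3% of those kept in the second lay at a gene end, against 7.25% and 5.07% of missing regions matched for rank. In the first list the gradient extended beyond the gene end. Of regions within 1 kb 20.8% were kept there, of those at 1 to 10 kb 15.1%, at 10 to 50 kb 12.8% and beyond 50 kb 8.46%. Those of the second list were nearly level up to 50 kb, at 2.38%, 2.42% and 2.33%, and 1.80% beyond it, where the ranks of these regions gave 1.03%, 2.24%, 2.39% and 2.29%. Among the 542 strongest regions the second list kept 56.3% (9 of 16), 35.2%, 41.8% and 31.4%, which is no steady order. In the strongest 10% of regions and the first list, 44 of 88 within 1 kb and 246 of 844 beyond 50 kb (29.1%) were kept, and in the weakest 10% the shares were 14.7% and 1.73%.

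**Figure D4:**
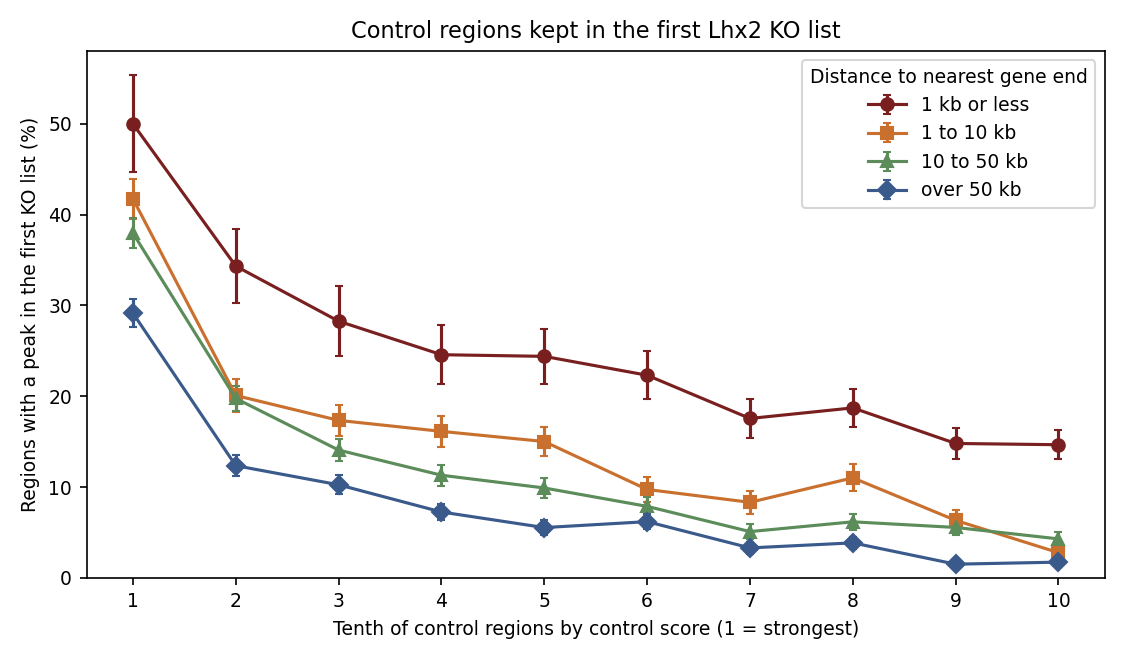
Share of control regions with a peak in the first KO list (%, vertical axis) by rank bin of 10% of the regions (horizontal axis, 1 the strongest) and distance to the nearest gene end; bars are binomial standard errors over regions. Regions within 1 kb of a gene end are kept most often in all 10 bins, and those beyond 50 kb least often.

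The 5 strongest regions kept in both lists at a gene end included that of an olfactory G protein gene. Gng13, the gamma subunit of the olfactory G protein, carries a region from 25718304 to 25718643 on chromosome 17. This region lies inside the gene, 0.39 kb from a gene end and within 1 kb of a listed gene start. It ranked 112, 104 and 89 in the control lists and 571 and 216 in the KO lists. A region 0.64 kb from Ankrd10 ranked 7, 14 and 4 in the controls and 1404 and 22 in the KO lists, and one in Lgals12, a galectin gene, 40, 27 and 49 and then 96 and 7. Regions near Tbx19, a T-box factor of the pituitary (262 and 316), and in Slc38a6, an amino acid transporter (191 and 246), completed the 5 strongest. Each of the 5 was thus present in all 5 libraries.

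Some KO peaks had no control counterpart, and these lay at gene ends more often than the other KO peaks. In the first KO list 1015 of 4290 peaks (23.7%) overlapped no peak of any control list, and 46.8% of them lay within 1 kb of a gene end, against 21.8% of the other peaks. In the second list 37 of 542 (6.83%) had none, of which 27 (73.0%) lay at a gene end, against 13.5%. Peaks without a control peak ranked lower, with median ranks of 2809 against 1907 in the first list and 336 against 262 in the second. Gene ends were more common at lower ranks of the first list, and these shares were not matched for rank. Set against pairs of control lists, the share of top 542 peaks outside them was 8.92% and 7.63% in the KO libraries and 0, 0.185% and 0 in the controls (exact permutation p = 0.1; adjusted p = 0.217). At 4290 peaks it was 26.9% against 0.093%, 0.326% and 0.303% (exact permutation p = 0.25; adjusted p = 0.295). These peaks seldom recurred. Only 10 sites outside all control lists were in both KO lists, among them those at Irgm2 (24.5 kb), Foxo6, Gse1, Dnaic1, Socs3, Stag1, Opa3, 9430078G10Rik and Anxa5. Within 1 kb of a gene end lay 5 of them, including Dnaic1, Socs3, Opa3 and Anxa5. Of the 10, Socs3, a feedback inhibitor of cytokine signalling, ranked 1845 and 347 in the KO lists, and Stag1, a cohesin subunit gene, 743 and 491, at a site that also held Rad21 and CTCF regions.

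Promoters with a kept region differed in their motifs from promoters with a missing region of similar rank. Of 21263 promoter windows of protein-coding genes, 1353 were taken as the window of a control region, and 329 of these regions were kept in the first KO list and 44 in the second. TAATTA, the core shared by Lhx2-type homeodomains, was in 3.34% of the windows kept in the first list (11 of 329) and in 10.4% of missing ones weighted to the same ranks. In the second list it was in 6.82% (3 of 44) against 12.96%. All promoter windows had 4.53%. CCCNNGGG, the core of Ebf sites, showed the opposite, with 33.1% (109 of 329) against 18.2% in the first list, 36.4% (16 of 44) against 21.5% in the second, and 15.6% of all windows. GGGCGG, the GC box, was in 77.8% against 64.4%, and in 46.2% of all. Base composition moved with these shares: the median GC content was 65.0% in windows kept in the first list, 59.8% in windows kept in neither and 56.3% in all, and its part in the motif shares was not tested.

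Of the other motifs, CCAAT and the CTCF core differed in the first list by about as many percentage points as TAATTA. Their shares were much larger, so the relative differences were smaller. There CCAAT was in 43.2% of kept and 50.5% of missing windows (38.2% of all), CANNTG, the E-box, in 60.5% and 63.3% (69.0% of all), and AGGNGGC, a core of CTCF sites, in 46.5% and 39.2% (33.6% of all). CCGGAAG (Ets) was in 17.3% and 18.7% (11.6% of all), and TGACGTCA (cAMP response element) in 3.65% and 3.97% (2.23% of all). GCATGCGC (Nrf1) was in 5.47% and 5.81% (3.52% of all), and AAGATGGC (YY1) in 3.34% and 5.73% (3.05% of all). In the second list, with 44 windows, the CTCF core was in 52.3% of kept and 38.5% of missing windows and CCAAT in 43.2% and 48.0%. The E-box was in 72.7% and 63.2% there, so its difference had the opposite sign to that in the first list. Both strands were searched, and matches of different motifs may overlap. A match is a run of letters, not a bound site, and it may lie outside the peak because windows were searched whole.

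CTCF sites were somewhat more common under KO peaks. A CTCF region (a peak in both CTCF libraries) lay at 5.72% and 6.09% of the top 542 KO peaks and at 4.06%, 3.87% and 3.51% of the control peaks, without overlap between groups (exact permutation p = 0.1, two-sided; adjusted p = 0.217). At 4290 peaks the shares were 5.85% in the first KO library (Wilson interval 5.19 to 6.59) and 3.75%, 3.57% and 3.78% in the controls (exact permutation p = 0.25; adjusted p = 0.295). The rank-matched difference between kept and missing regions was 3.65 and 2.53 percentage points in the KO libraries and 0.55, 0.47 and -0.29 in the controls (exact permutation p = 0.1; adjusted p = 0.217). The size of the difference varied with the definition of a CTCF region, while the groups stayed apart under the definitions that follow. The difference of group means, 2.09 points at 542 peaks and 2.15 at 4290, was 0.80 and 0.67 with a reciprocal overlap of 50%, and 5.14 and 10.79 with a peak in either CTCF library. The rank-matched difference was 2.84 points, and 6.16 with a peak in either library. Over the full control lists the CTCF shares were 4.76%, 4.61% and 3.91%. Of control regions at CTCF, 22.9% (with Rad21) and 30.6% (without Rad21) lay within 1 kb of a gene end. For regions with neither factor it was 10.5%. The part of gene ends in the CTCF difference was not tested.

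Rad21 gave no such separation at 542 peaks. The 2 Rad21 lists are of unlike length (10487 and 28151 peaks) and differ strongly at Ldb1 sites. Whether the second holds what its label says was not tested, and a Rad21 region as used here depends on both. A region with a peak in both Rad21 libraries lay at 21.6% and 15.7% of the KO peaks and at 16.1%, 15.5% and 17.3% of the control peaks, so the second KO library fell within the control range (exact permutation p = 0.5; adjusted p = 0.5). The rank-matched differences were 18.9 and 8.91 points in the KO libraries and 5.63, 5.23 and 10.0 in the controls, again overlapping (exact permutation p = 0.3; adjusted p = 0.325). At 4290 peaks the first KO library had 9.37% and the controls 6.95%, 7.02% and 7.23% (exact permutation p = 0.25; adjusted p = 0.295). Of 381 control regions at Rad21 without CTCF, 248 (65.1%) were kept in the first KO list, against 24.0% for regions of the same ranks and the background of 12.7%. In the second list 64 (16.8%) were kept, against 7.81%. Of the 381 regions 81 were among the 542 strongest, for which the shares given by 10 rank bins are too low. The share at Rad21 without CTCF, kept minus missing, was 7.14 points in the first list and 7.76 in the second. With 100 rank bins it was 6.71 and 5.00. Judged by the first Rad21 library alone, a choice made after the data were seen, 310 of 488 control regions with its peak and no CTCF region were kept in the first KO list (63.5%, where their ranks gave 24.6%) and 90 in the second (18.4% against 8.11%). For the 4112 regions with a peak of the second Rad21 library alone the shares were 30.3% against 16.5%, and 4.91% against 3.97%. Of 490 regions with both factors 92 (18.8%) and 19 (3.88%) were kept, against 11.3% and 1.76% for their ranks. Among the regions with both factors were those near Caprin1, within Homer2 and Nell2, and near Srsf3 and Ssx2ip, which were kept in both lists. By single library, peaks of the first Rad21 list were at 26.2% and 19.4% of the top 542 KO peaks, and a peak of the second at 68.3% and 56.8%, against 21.4% to 22.1% and 61.4% to 65.9% of the control peaks.

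Within OR clusters the strongest Ldb1 sites were nearly all kept in the full KO lists. The 43 clusters held 167 control regions, of which 33 were kept in the first KO list (24.96 expected from their ranks) and 19 in the second (5.67 expected). These expected counts are too low for the strongest regions. All regions of the first rank bin were kept at 36.0% and 14.7%, but the 542 strongest at 57.6% and 37.1%. Among the 542 strongest control regions 16 lay in OR clusters. Of these 15 were kept in the first list (93.8%, Wilson interval 71.7 to 98.9) and 14 in the second (87.5%, 64.0 to 96.5), against 56.5% and 35.6% of the other 526. The 20 regions outside OR clusters nearest in rank to each of the 16 were kept at 60.3% and 43.8%. The split was made after values had been seen, and no test was run on it. The remaining 151 OR cluster regions were kept at 11.9% and 3.31%, against 11.6% and 1.303% of the other remaining regions.

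**Figure D5:**
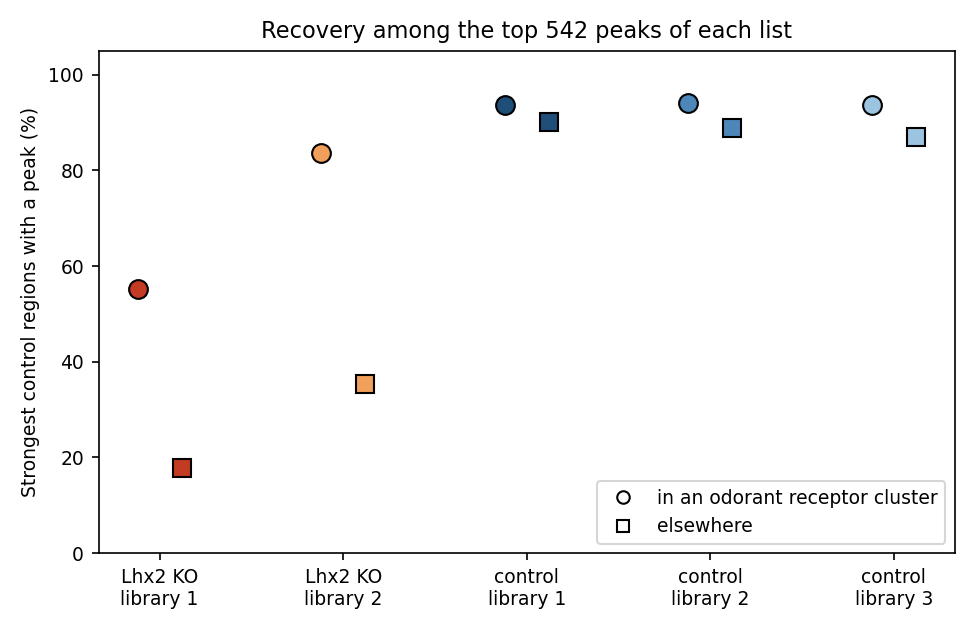
Share of the 542 strongest reference regions (%, vertical axis) found among the top 542 peaks of each library (horizontal axis), for regions in OR clusters (circles) and elsewhere (squares). In the KO libraries OR cluster regions were recovered at 55.1% and 83.7% and others at 17.9% and 35.4%, while in the control libraries all shares lie between 87.1% and 94.1%.

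At equal list length the contrast had the same direction, though the first KO library held fewer of the OR cluster regions than any control library. On average 9 of 16.3 OR cluster regions (55.1%) were among the top 542 peaks of the first KO library and 13.7 (83.7%) among those of the second, against 17.9% and 35.4% of the other regions. In the control libraries the values were 93.8%, 94.1% and 93.8% in the clusters and 90.1%, 88.8% and 87.1% elsewhere. OR cluster peaks made up 2.03% and 3.51% of the top 542 in the KO libraries and 2.95% to 3.32% in the controls. The first KO library thus lay below the control range and the second above it. With the 100 kb flanks of the clusters left out, 9 of the 10 strongest regions were kept in each KO list.

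The sites concerned are spread over the genome. The one within Lpxn, 30.6 kb from Olfr1444 on chromosome 19, ranked 24, 15 and 18 in the controls and 707 and 36 in the KO lists. The one 10.8 kb from Olfr9 on chromosome 10 (128978794 to 128979136) ranked 39, 44 and 11, and 34 and 15 in the KO lists. That near Olfr448 (26.3 kb) ranked 143, 97 and 75, and 434 and 10. Near Olfr1507 a site at 52547934 to 52548271 on chromosome 14 ranked 443, 379 and 455, and 1057 and 168. The exceptions were a site 7.85 kb from Olfr139, which ranked 121, 128 and 133 in the controls and had no KO peak, and one 14.4 kb from Olfr749, kept in the first list alone. Of the 16 sites 15 had a peak of the first Rad21 library and 1 of the second, whereas of the other 526 strong regions 106 had a peak of the first and 348 of the second. No site among the 20 strongest in OR clusters had a CTCF peak in either library.

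Genes of olfactory transduction kept more regions in the first KO list than regions of their rank did. Regions within 10 kb of the 19 genes numbered 122, and 37 were kept in the first list, against 20.1 expected from rank and 21.1 from rank and distance to a gene end together. In the second list 6 were kept, against 4.49 expected. At least 1 region was kept in the first list in 16 of the 19 genes, where 24.6% of the 8634 genes with a control region had one, and in the second list in 6, where 4.60% had one. These genes have many regions, which raises both shares. Among the top 542 peaks, 14 of the first KO library and 6 of the second lay near these genes, against 9, 7 and 8 in the controls, so the KO libraries lay on both sides of the controls.

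Omp, the marker of mature neurons, kept both of its regions in the first list (ranks 554 and 1018) and neither in the second. Adcy3, the adenylyl cyclase of olfactory cilia, kept 3 of 10 in the first list and 1 in the second, and the strongest of the 10 was kept only in the second, at rank 349. Gnal, the alpha subunit of the olfactory G protein, kept 5 of 12 in the first list and 1 in the second. Ano2, the calcium-gated chloride channel, kept 4 of 15 and 0. The channel subunit genes Cnga2 and Cnga4 kept none of their 2 and 1 regions, and Cngb1 kept 2 of 4 in the first list. All 9 genes used to define mature neurons (Omp, Adcy3, Gnal, Cnga2, Cnga4, Cngb1, Stoml3, Gng13 and Ano2) had a control region. Markers of other cells had few: basal and progenitor cells 6 regions, sustentacular cells and glands 4, and glial, immune and vascular cells 4. Of these 1, near Pdgfrb of vascular mural cells, was kept, in the first list. The expected counts there were 0.48, 0.43 and 0.32, in the order given.

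Axon guidance genes showed no common direction in the 2 lists. Of 293 regions 31 were kept (10.6%), against 40.4 expected from rank and 34.3 from rank and distance. The second list kept 13, against 7.66 and 7.12 expected. Among the top 4290 peaks 32 of the first KO library lay near these genes, against 68, 70 and 63 in the controls. Among the top 542 there were 6 and 13 KO peaks, against 13, 11 and 14. The second KO library was within the control range and the first below it. Robo1, a receptor for Slit, kept 0 of 22 regions, and Ncam2 and Kirrel3, adhesion proteins of olfactory axons, 0 of 14 and 0 of 9. Plxna4, a semaphorin receptor, kept 2 of 32 in each list. Sema7a, a semaphorin, kept 2 of 3 in each list, and Efna3 kept 1 of 4 in each.

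Regulators of these neurons kept regions near the rank expectation, with 22 of 125 in the first list (19.7 expected) and 5 in the second (4.45 expected). Ebf3 kept 2 of 15 in each list, one of them at control rank 15. Ebf2 kept 6 of 28 and 1, Ebf1 2 of 26 and 0, and Ebf4 3 of 6 and 0. Emx2, a homeobox regulator of OR expression, kept 1 of 3, while its strongest region (194, 206 and 506 in the controls) had no KO peak. Atf5 kept its only region in both lists, at 3501 and 206. In the list of LIM-domain and Ldb1 complex genes 6 of 30 regions were kept in the first list (3.89 expected) and 0 in the second. Lhx2 kept 1 of 4, a region within the gene that ranked 263 in the first list. Ldb1 kept 1 of 3, at rank 1478.

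The remaining lists were small. Immature neuron markers kept 4 of 32 in the first list (4.11 expected), CTCF and cohesin genes 1 of 23 (2.00 expected) and ribosomal protein genes 5 of 36 (3.84 expected). Housekeeping genes kept 2 of 11 (0.99 expected) and genes of other tissues 1 of 3 (0.44 expected). Regions within 10 kb of OR genes numbered 63, of which 8 were kept in the first list (8.34 expected) and 3 in the second (1.68 expected). The Rosa26 locus, which carries the reporter in the KO mice, had 1 control region, not kept. Several long genes with many regions kept none, a choice made after their values were seen: Magi1 with 34 regions, Hdac9 with 28, Dlg2 with 26, Fhit with 26 and Foxp1 with 23. Auts2, with the most regions (56), kept 5 in the first list and 0 in the second.

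Chromosome X stood apart in the first KO list. It held 15 of the 4290 peaks (0.350%, Wilson interval 0.212 to 0.576), against 1.47%, 1.45% and 1.33% of the top 4290 control peaks. Of 450 control regions on X 10 were kept in the first list (2.22%), where their ranks gave 49.7, and 1 in the second, where they gave 6.52. On each of the autosomes the kept number was between 0.82 and 1.26 times that expected from rank, and on X 0.20 times. Chromosome Y held no KO peak and 3, 5 and 1 control peaks. Cnga2 is one of the genes on X. This chromosome was singled out after its values were seen, the comparison rests on the first KO list, and the labels used here give no sex of the animals.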

How the data were processed

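Each deposited file holds the peaks of a single library. Per the submitters' processing notes, HOMER 4.7, SAMtools 1.3.1, Bowtie2 2.3.2, cutadapt 1.9.1, Picard and STAR 2.5.3a were used on the build mm10, in roles the notes do not state. How peaks were called (threshold, input, filters) is not given in the sources used here. The peak score is the authors' deposited value, of unknown scaling, which served to rank peaks inside a list and for nothing else. Averages over control libraries served only to order regions. No read numbers are given, so depth is unknown, and binding, enrichment and read number cannot be told apart in the length of a list.

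Lists were restricted to chromosomes 1 to 19, X and Y and compared in Python 3.11.15 (NumPy 2.4.6, pandas 2.3.3, SciPy 1.17.1). Overlap meant 1 base, and equal scores kept file order. Control regions were linked peaks of at least 2 control libraries. Distances are from a peak's nearer edge to the nearer end of a protein-coding gene body of the RefSeq table (GRCm38.p6), and a gene list took regions within 10 kb of its genes; 1 listed symbol was not found. OR clusters are runs of at least 3 OR genes with gaps under 300 kb, plus 100 kb flanks. Expected counts are the kept share of each of 10 bins of control rank, summed over a set's regions. Kept shares fall with rank inside the first bin, so expected counts are too low for sets with many of the strongest regions. Regions are not replicates: tests are exact permutations over libraries, two-sided, adjusted over 13 results by Benjamini-Hochberg. For recovery, peaks outside control lists and rank-matched differences, references came from control libraries alone and were not rebuilt for each assignment. The p-values there only describe how the library values separate. Matching was checked on simulated regions whose kept share fell evenly over all ranks. That check does not cover the steep fall inside the first bin. Members and lists were chosen with earlier results of these data known. Named regions are the 15 with the highest KO scores, the 15 strongest without a KO peak, the strongest kept in both lists at gene ends (5), at CTCF with Rad21 (5) and in OR clusters (up to 10), the 10 highest of the sites in both KO lists alone, and members of the gene lists; a selection is printed. Printed promoters are the strongest regions with a window, since none of the strongest missing regions had one. Alternatives were other overlaps, list lengths, windows, bins and left-out libraries. Some of the sites that the naming rule selects are not reported here.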

Additional observations from a re-analysis of the deposited data

How the results depend on the processing

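All 13 tested results kept their direction under every alternative run, except the share at Rad21 regions among the top 542 peaks. That difference, 2.34 percentage points as reported, was -0.65 with a peak in either Rad21 library, -0.55 with the second Rad21 library alone (an alternative chosen after seeing the data) and ranged from -0.62 to 5.29 when 1 library was left out, the lowest without the first KO library. The cause was not tested. The rank-matched Rad21 difference, 6.96, ranged from 1.95 (without the first KO library) to 11.98 (without the second) with 1 library left out, and was 14.17 with a peak in either library and 23.77 with 100 rank bins, where the controls spread from -37.8 to 12.1. The Rad21 difference at 4290 peaks, 2.31, was 1.22 with a reciprocal overlap of 50% and 8.54 with a peak in either library, and that at 542 peaks was 0.71 with the 50% overlap, 1.38 by peak centres and 1.01 with the first Rad21 library alone. With 300 and 2000 top peaks the CTCF differences were 3.17 and 1.27. With 2000 peaks in place of 4290, the gene end difference was 14.2, against 23.1, and that outside control peaks 16.3, against 26.7. The latter at 542 peaks, 8.21, was 5.28 with 300 peaks and 13.87 with the 50% overlap. The gene end difference at 542 peaks ranged from 8.73 to 14.6 with 1 library left out, recovery from -69.8 to -51.9, and the rank-matched gene end difference from 6.10 to 7.48. With 100 rank bins, also chosen afterwards, the groups overlapped for the rank-matched CTCF difference (2.502). Without chromosome X, with ties included and with distances from peak centres, gene end shares stayed apart (11.6, 12.7 and 11.2 points). With regions in all 3 control libraries, 12372 had a KO peak in neither list, against 19790, since fewer regions were defined. The KO and control libraries share only numbers: deviations of those numbered 1 and 2 correlated at 0.04 over regions, and a replicate block gave 11.5 points for gene ends, 2.86 for Rad21 and -61.6 for recovery at 542 peaks (exact p = 0.5, the smallest 2 pairs allow). No paired analysis was possible at 4290 peaks because the second KO list is shorter. Depth is unknown, so absence of a peak is not absence of Ldb1.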
